A study of Homo sapiens with 6 samples.

Results

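Promoter loci of the cohesin subunit SMC1 that carried a peak in control and in ICM-treated IMR90 fibroblasts, and none in senescent IMR90 fibroblasts, were described. IMR90 is a line of human lung fibroblasts, used here as wild type. ICM is inflachromene, a compound that inhibits the chromatin proteins HMGB1 and HMGB2. CUT&Tag, in which an antibody tethers a transposase to its target on chromatin, had been carried out for SMC1 and for CTCF with 1 library per condition, so 6 libraries gave 6 peak lists. The SMC1 control and ICM libraries were both from cells with the p number 16 and the senescent one from cells with the p number 34, so senescence and p number cannot be told apart. For CTCF the p numbers were 21, 16 and 34, and the CTCF library of treated cells was labelled with 6 days of ICM, whereas the SMC1 library of treated cells carried no number of days. The senescent libraries were identified by their p number, because the series has a single sample of high passage for each antibody.

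Whole SMC1 peaks of the 3 lists that overlapped by at least 1 bp were merged on chromosomes 1 to 22 and X, which gave 22580 loci. The loci described here were then chosen by the presence of a control and an ICM peak, by the absence of a senescent peak, and by overlap with the annotated 5′ end of a protein-coding gene extended by 1 kb on each side. This selection gave 1235 of the 22580 loci, and they are called peak-missing promoters below, which says that no senescent peak is listed and not that binding was measured to be lost. Their presence in 2 lists and absence from the other is therefore a description of how they were chosen and not a finding. Peak lists hold only regions above a cut, so a locus without a senescent peak may still carry SMC1 signal below that cut, and fewer cells with SMC1 at a promoter and less SMC1 per cell cannot be told apart.

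Cohesin is a ring built from SMC1, SMC3, RAD21 and a STAG subunit that holds sister chromatids together and extrudes loops of DNA. It is loaded in many cases at active promoters, where its loader NIPBL is also found, and it halts at CTCF, a zinc finger protein that marks loop anchors and domain borders. SMC1 peaks thus fall into those with CTCF and those at active promoters and enhancers without CTCF. In replicative senescence, fibroblasts stop dividing for good, silence genes of DNA replication and secrete inflammatory factors and matrix proteins.

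RefSeq promoter sequences (GRCh38.p14, 250 bases before to 50 after the start) are shown for 6 genes of peak-missing promoters, because the letters of ETS and CRE sites in such windows are compared between promoter classes further on. Of the 14 genes with an entry among the highest-ranked loci and those set out by their CTCF class, 5 held such letters and are shown, with ZSWIM6 as the highest-ranked locus without them. Capitals mark the ETS letters CCGGAAG (or CTTCCGG on the other strand) and the CRE letters TGACGTCA.
JUND (chr19:18281573-18281872, minus strand): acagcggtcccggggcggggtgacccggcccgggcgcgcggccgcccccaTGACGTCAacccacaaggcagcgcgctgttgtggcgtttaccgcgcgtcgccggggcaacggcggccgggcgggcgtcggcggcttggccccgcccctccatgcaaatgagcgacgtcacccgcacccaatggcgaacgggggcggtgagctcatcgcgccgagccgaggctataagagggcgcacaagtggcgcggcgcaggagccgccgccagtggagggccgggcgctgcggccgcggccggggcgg
EOLA2 (chrX:149938442-149938741, minus strand): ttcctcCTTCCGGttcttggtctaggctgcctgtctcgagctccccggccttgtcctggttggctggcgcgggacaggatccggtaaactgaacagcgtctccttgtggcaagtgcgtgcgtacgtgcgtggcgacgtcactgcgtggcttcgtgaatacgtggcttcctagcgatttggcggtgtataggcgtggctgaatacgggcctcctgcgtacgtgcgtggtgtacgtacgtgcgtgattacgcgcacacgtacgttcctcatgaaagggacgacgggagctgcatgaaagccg
TP53RK (chr20:46689395-46689694, minus strand): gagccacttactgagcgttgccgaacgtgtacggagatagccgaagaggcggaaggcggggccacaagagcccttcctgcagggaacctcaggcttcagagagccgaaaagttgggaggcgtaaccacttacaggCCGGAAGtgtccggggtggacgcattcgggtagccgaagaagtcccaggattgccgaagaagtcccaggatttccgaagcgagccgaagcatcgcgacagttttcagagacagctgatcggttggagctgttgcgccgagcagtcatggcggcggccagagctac
POLM (chr7:44082481-44082780, minus strand): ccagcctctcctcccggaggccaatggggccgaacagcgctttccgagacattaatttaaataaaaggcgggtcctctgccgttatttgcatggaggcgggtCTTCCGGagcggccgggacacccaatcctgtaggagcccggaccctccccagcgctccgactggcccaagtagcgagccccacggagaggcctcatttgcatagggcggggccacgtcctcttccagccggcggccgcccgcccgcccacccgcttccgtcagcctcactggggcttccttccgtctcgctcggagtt
ZCCHC9 (chr5:81301337-81301636, plus strand): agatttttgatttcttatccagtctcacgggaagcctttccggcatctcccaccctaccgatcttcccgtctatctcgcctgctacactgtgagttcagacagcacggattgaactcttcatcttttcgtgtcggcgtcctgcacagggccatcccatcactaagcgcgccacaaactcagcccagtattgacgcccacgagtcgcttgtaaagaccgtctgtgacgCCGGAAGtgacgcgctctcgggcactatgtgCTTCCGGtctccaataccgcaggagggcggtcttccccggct
ZSWIM6 (chr5:61332008-61332307, plus strand): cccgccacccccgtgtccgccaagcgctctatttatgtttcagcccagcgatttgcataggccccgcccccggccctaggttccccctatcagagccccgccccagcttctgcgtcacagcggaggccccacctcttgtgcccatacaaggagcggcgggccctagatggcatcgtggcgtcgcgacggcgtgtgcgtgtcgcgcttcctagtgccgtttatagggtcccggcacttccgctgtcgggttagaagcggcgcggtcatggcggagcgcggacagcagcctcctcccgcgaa
In JUND, which codes for a subunit of the AP-1 transcription factor, the CRE letters began 200 bases before the start. The ETS letters began 244 bases before the start in EOLA2, 115 in TP53RK, which codes for a kinase of tRNA modification, and 148 in POLM, which codes for DNA polymerase mu. ZCCHC9 held them on both sides of the start, 23 bases before it and 8 bases after it. The content of G and C in the 6 windows ran from 56.3% in ZCCHC9 to 77% in JUND, against a median of 63% over all protein-coding promoters.

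The lists were of unequal length. The SMC1 lists held 14883 peaks in control, 17809 in ICM and 12927 in senescent cells, with median widths of 911, 754 and 1005 bp. The CTCF lists held 4673, 6728 and 8577 peaks. The study's methods state a minimum number of reads per sample but not the number behind each list, so the depth of each is unknown, and totals of signal were ranked within a list and not compared between lists. Of 10 fibroblast marker genes, 7 had a control SMC1 peak at the promoter, 6 an ICM peak and 5 a senescent peak. None of the endothelial and leukocyte markers with an annotated strand had a peak in any of these lists, and of 4 epithelial markers 2 had a control and 2 a senescent peak. No condition had a replicate, and no difference between conditions was tested. Intervals below are exact 95% intervals (Clopper-Pearson) that cover counting error only.

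Of the 22580 SMC1 loci, 6657 (29.5%) lay at a protein-coding promoter and 15923 were distal. Promoters were present in all 3 lists in 3212 cases, which is 48.3% of promoter loci, against 31.6% of distal loci. Peak-missing promoters made up 18.6% of promoter loci and were the class of next size. A further 883 promoter loci were in the control list alone, 409 in the ICM list alone and 369 in the senescent list alone. Control and senescent cells without ICM shared 363, and ICM and senescent cells without control shared 186.

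Put as a share, 1235 of the 4447 promoter loci of control and ICM lacked a senescent peak, which is 27.8% (26.5 to 29.1). At distal loci it was 2394 of 7429, or 32.2% (31.2 to 33.3). These shares are the background of the selection itself, and the peak-missing promoters were not singled out from it. Of promoter loci shared by control and senescent cells, 10.2% lacked an ICM peak, and of those shared by ICM and senescent cells 5.47% lacked a control peak. The distance between these shares depended on the lengths of the lists. When each list was limited to its 12927 peaks of highest total signal, 21.6% (20.3 to 22.9) lacked a senescent peak, 16.1% (14.9 to 17.4) an ICM peak and 4.82% (4.08 to 5.64) a control peak. When the same number was taken by highest signal, the shares were 21.4% for senescent and 21.9% for ICM, with overlapping intervals (20.002 to 22.9 and 20.5 to 23.3).

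Peak-missing promoters lay in the middle of the control and ICM lists, and most loci kept in all 3 lists stood above them. By total signal, a peak's coverage summed over its length, their median percentile was 48.0 in control (quartiles 27.2 and 65.2) and 43.2 in ICM (22.7 and 60.3). For promoters in all 3 lists the medians were 77.6 and 75.7, with a senescent median of 68.0. Ranked by highest signal, the medians were 44.6 and 35.0 for peak-missing promoters and 69.1 and 63.6 for promoters in all 3 lists. The control peaks of peak-missing promoters had a median total signal of 1.63 times the lowest in that list, against 2.65 times for promoters in all 3 lists, and the ICM peaks 1.47 times against 2.33 times. Over all SMC1 loci the medians were 1.68 times in control and 1.59 times in ICM. Many listed loci, and not peak-missing promoters alone, were thus close to the signal at which a peak enters a list. Both peaks were below the 25th percentile of their list at 115 loci (9.31%) and both at or above the 75th at 68 (5.51%), whereas 42.1% of promoters in all 3 lists had both peaks at or above the 75th percentile. The ranks of control and ICM correlated across loci with a Spearman rho of 0.44 over the 1235 peak-missing promoters and 0.76 over the 3212 in all 3 lists, as a description only, because loci of the same libraries are not independent and a narrower range of ranks lowers such a value.

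**Figure D1:**
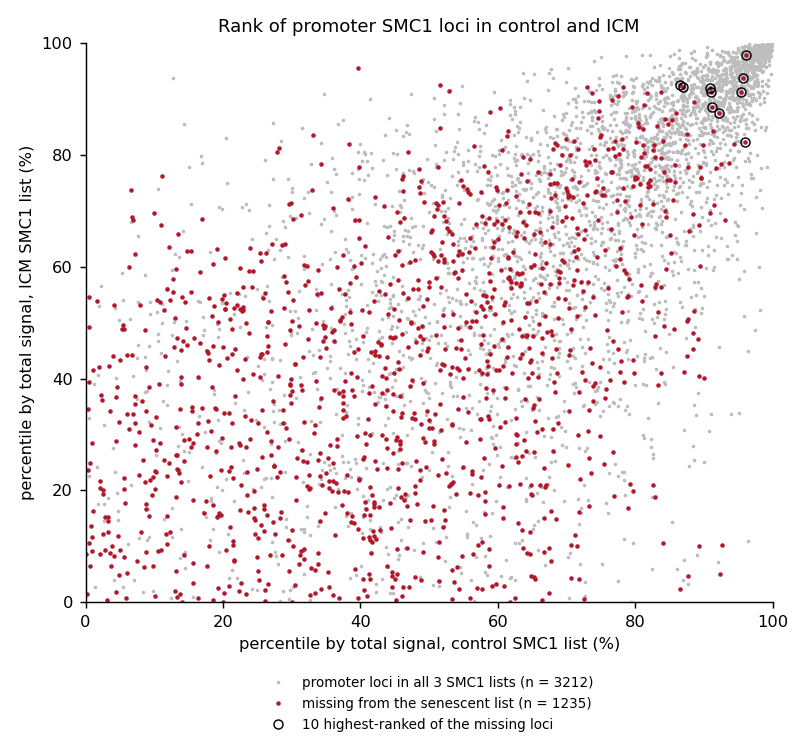
Percentile by total signal of each promoter locus within the control SMC1 list (x axis) and within the ICM SMC1 list (y axis), in percent. Each red point is 1 of the 1235 peak-missing promoters, each grey point 1 of the 3212 promoter loci in all 3 lists, and rings mark the 10 peak-missing promoters of highest mean percentile. Red points are spread over the lower and middle ranks of both lists, while grey points crowd the upper right corner.

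The share of promoters without a senescent peak fell with rank. Loci were put into 4 rank bands with borders at the percentiles 25, 50 and 75. In the lowest band of the control list the share was 63.7% (59.0 to 68.3), in the next 46.6%, then 32.6%, and in the highest band 8.25% (7.04 to 9.58). Distal loci gave 56.8%, 41.1%, 24.9% and 6.84% in the same order. Promoters thus had the higher share within each band of the control list, although the pooled share was higher at distal loci. That order turned when loci were ranked in the ICM list. Promoters then gave 58.0%, 47.4%, 29.4% and 7.04%, and distal loci 59.0%, 49.9%, 33.7% and 9.56%. Ranked by highest signal of the control list, promoters were above distal loci in the lowest band alone (48.3% against 43.6%) and below them in the other 3. No statement that promoters lose SMC1 peaks more or less often than distal loci can be drawn from ranks of these lists.

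**Figure D2:**
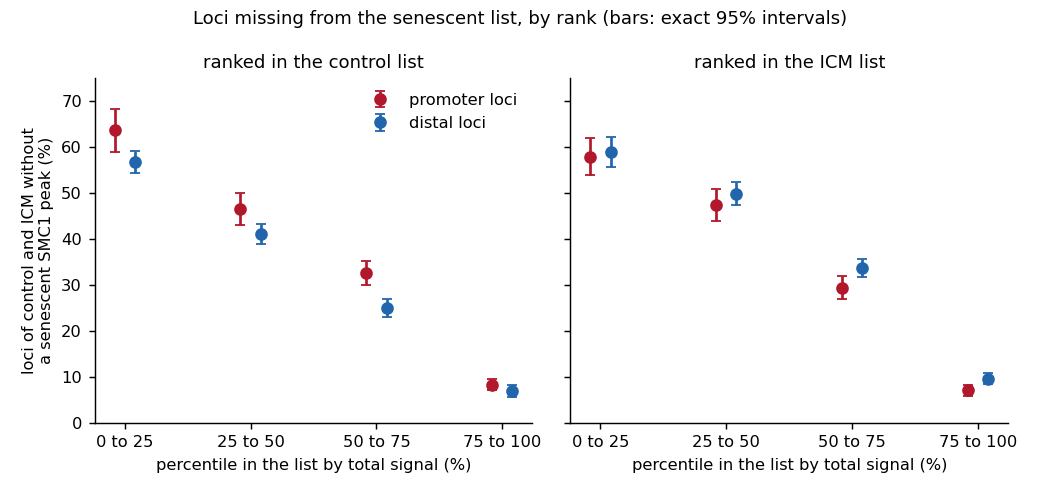
Share of loci of control and ICM without a senescent SMC1 peak (y axis, percent) in 4 rank bands of the control list (left) and of the ICM list (right) by total signal, with promoter loci in red and distal loci in blue and exact 95% intervals as bars. The share falls from 63.7% to 8.25% at promoters from the lowest to the highest band of control. Red lies above blue on the left and below it on the right.

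The 10 peak-missing promoters of highest mean percentile stood well inside the control and ICM lists. ZSWIM6, which codes for a zinc finger protein, had the first place. Its locus at chr5:61330246-61332355 had a total signal of 18067 in control (percentile 96.1) and of 13786 in ICM (97.9), with the nearest senescent SMC1 peak 22956 bp away. JUND followed, at chr19:18280970-18282577, with 17381 in control (percentile 95.6) and 9944 in ICM (93.8), and a senescent peak 5264 bp away. At the start sites of ELF1, an ETS transcription factor, and of its neighbour WBP4, a splicing factor, the total signal was 16997 in control and 8722 in ICM. The locus of DCBLD2, a membrane receptor, had 13496 and 9006, and that of BPGM, an enzyme of red cell glycolysis, 13554 and 8736. Over these loci the senescent list held no peak although percentiles in both other lists were above 90.

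The others of the 10 were P3H2, HIBCH, CASP9, MAT2A and CEBPD, with control percentiles from 86.5 to 95.9 and ICM percentiles from 82.2 to 92.4. P3H2 codes for a collagen prolyl hydroxylase, HIBCH for an enzyme of valine breakdown, CASP9 for the initiator caspase of the mitochondrial death pathway and MAT2A for the enzyme that makes S-adenosylmethionine. CEBPD codes for a transcription factor of the acute phase response. The P3H2 locus met the rule at the edge of its window, since the control summit lay 1291 bp inside the gene. Senescent SMC1 peaks were close by at CASP9 (843 bp) and CEBPD (1713 bp), and far from HIBCH (518004 bp).

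Closeness to a transcription start was part of the selection, so the positions of the peaks are given as a description. The median control summit, the midpoint of the region of highest signal, lay 63 bp before the 5′ end (-63; quartiles -137 and 42), and the median ICM summit lay at the same distance. A control summit lay within 250 bp of a 5′ end at 78.5% (76.1 to 80.8) of peak-missing promoters and at 69.9% (68.2 to 71.4) of promoters in all 3 lists. Control and ICM summits were within 100 bp of each other in 76.5% of peak-missing promoters, with a median distance of 40 bp. The loci were 1009 bp wide in the median, against 1378 bp for promoters in all 3 lists and 832 bp for distal loci without a senescent peak. The 3 widest lay at USP3 (2960 bp), a deubiquitinase, SEPTIN11 (2742 bp), a cytoskeletal septin, and MAN2A1 (2616 bp), a mannosidase of the Golgi. Divergent gene pairs, whose 5′ ends point away from each other within 1 kb, were found at 124 (10.04%, 8.42 to 11.9) of peak-missing promoters and at 13.7% (12.5 to 14.9) of promoters in all 3 lists. Promoters of the control list alone gave 7.13% (5.53 to 9.04) and those of the senescent list alone 5.42% (3.34 to 8.25).

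CTCF was measured in separate libraries that the selection did not use. A CTCF peak of the control list overlapped 14.6% (12.7 to 16.7) of peak-missing promoters, a CTCF peak of the ICM list 23.1% (20.8 to 25.5) and a CTCF peak of the senescent list 14.7% (12.8 to 16.8). At promoters in all 3 SMC1 lists the shares were 36.5%, 50.03% and 37.1%. Beside promoters in all 3 SMC1 lists, peak-missing promoters were thus CTCF-poor in each of the 3 CTCF lists. Over no CTCF peak at all lay 922 of 1235 peak-missing promoters and 1525 of 3212 promoters in all 3 SMC1 lists. CTCF shares were not taken for the other promoter classes, so which of these sets stands apart is not shown. Distal loci without a senescent SMC1 peak were alike in the share over a CTCF peak of any list, but not over one of the senescent list. A CTCF peak of any list overlapped 27.0% of them, against 25.3% of peak-missing promoters. One of the ICM list overlapped 19.2% of these distal loci and one of the senescent list 23.2% (21.5 to 24.9). The loci were also narrower, with the medians given above, and the part of width in this contrast was not tested. Within rank bands of the control SMC1 list the contrast varied. In bands from low to high, a control CTCF peak overlapped 10.2% (6.90 to 14.4), 14.2% (10.8 to 18.1), 14.2% (11.002 to 17.8) and 24.4% (17.9 to 31.9) of peak-missing promoters. In promoters of all 3 lists it overlapped 21.8% (15.6 to 29.1), 18.2% (14.6 to 22.2), 26.5% (23.6 to 29.5) and 47.5% (45.2 to 49.9). The intervals were apart in 3 bands and overlapped between the percentiles 25 and 50. With 100 bp around the CTCF summit in place of the whole CTCF peak, the shares of peak-missing promoters were 13.3% for control and 14.3% for senescent.

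The senescent CTCF list holds the most peaks, but they are the narrowest, with a median width of 1120 bp against 1797 in control and 1960.5 in ICM, and together cover 10.7 Mb against 9.24 and 14.7 Mb. It overlapped 14.7% of peak-missing promoters and the control list 14.6%. Distal loci without a senescent SMC1 peak were covered in 13.3% by the control CTCF list and in 23.2% (21.5 to 24.9) by the senescent one. CTCF peaks present in control were mostly also listed in senescent cells. Of the 180 peak-missing promoters with a control CTCF peak, 136 (75.6%, 68.6 to 81.6) had a senescent CTCF peak as well, against 84.7% of promoters in all 3 SMC1 lists and 89.6% of distal loci without a senescent SMC1 peak. A CTCF peak in control and ICM that was absent from the senescent list was found at 41 peak-missing promoters (3.32%), and one in the senescent list alone at 19 (1.54%). At promoters in all 3 SMC1 lists these shares were 5.17% and 1.68%. At distal loci without a senescent SMC1 peak they were 1.04% and 6.60%.

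**Figure D3:**
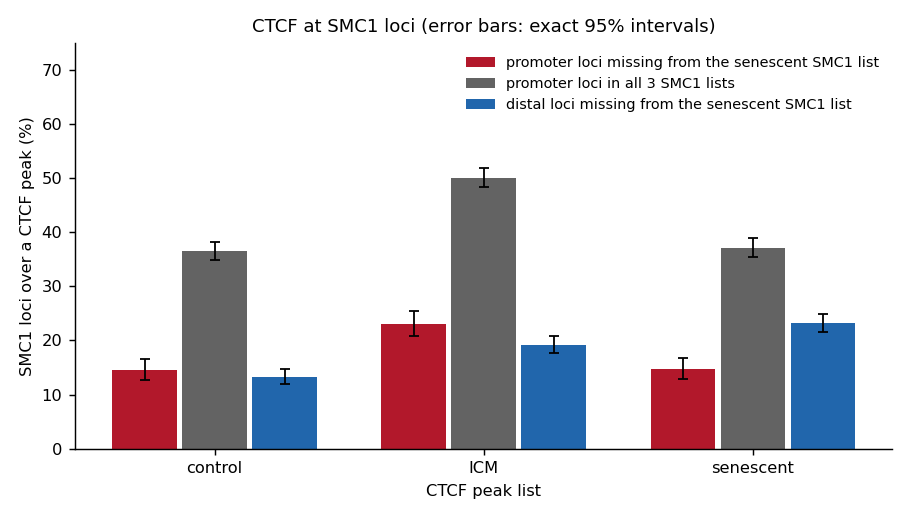
Share of SMC1 loci that overlap a CTCF peak by at least 1 bp (y axis, percent) in each of the 3 CTCF lists, with exact 95% intervals as error bars. Red bars are the 1235 peak-missing promoters, grey bars the 3212 promoter loci in all 3 SMC1 lists and blue bars the 2394 distal loci without a senescent SMC1 peak. Grey bars are at 36.5% to 50.03%, red bars at 14.6% to 23.1%, and the blue bar rises to 23.2% in the senescent list.

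Single loci show both kinds. JUND, HIBCH, MAT2A, CEBPD and ADRA1D, an adrenergic receptor gene, were the 5 highest-ranked peak-missing promoters with a CTCF peak in all 3 CTCF lists, so that CTCF was listed in senescent cells where SMC1 was not. DCBLD2, BPGM, P3H2, CASP9 and CALM2, a calmodulin gene, ranked highest among those over no CTCF peak. CTCF in the senescent list alone was found at EOLA2, TP53RK, NHLRC1, POLM and ZCCHC9, of which EOLA2 ranked highest with a control percentile of 87.5 and an ICM percentile of 83.7. NHLRC1, which codes for the ubiquitin ligase malin, had percentiles of 58.8 and 87.6.

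The selection excluded every locus with an overlapping senescent SMC1 peak, so gaps to the nearest such peak are given as a description. No matching distance was taken for promoters in all 3 lists. For peak-missing promoters the median gap to the nearest senescent peak was 49926 bp (quartiles 15013 and 133032). For distal loci without a senescent peak it was 26601.5 bp. A senescent peak lay within 1 kb of 70 peak-missing promoters (5.67%), within 10 kb of 18.6% and within 100 kb of 68.1%. At 27 loci it was over 1 Mb away. Nearest to the border of the rule were ARHGEF17 (31 bp), FAM20C (36 bp) and RFFL (44 bp), which a slightly wider senescent peak would have removed. Just outside it stood CRK, MFAP4 and IDH1, whose senescent peaks overlapped a control or ICM peak by at most 203, 299 and 330 bp. At CRK that was the ICM peak alone, since the senescent peak ended at 1456020 and the control peak began at 1456045. By the same measure, the overlap in promoters of all 3 lists was 971.5 bp in the median and never under 100 bp. A gap under 100 bp to a senescent peak was found at 4 peak-missing promoters.

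The largest gaps were found on the short arm of chromosome X, where EIF2S3, the pair APOO and CXorf58, and ACOT9 lie next to each other. EIF2S3 codes for a subunit of the initiation factor eIF2, APOO for a subunit of the mitochondrial cristae complex and ACOT9 for a mitochondrial thioesterase. Their distances to the nearest senescent SMC1 peak were 3986376, 3839081 and 3674736 bp, and they share that peak's absence, so they are not independent cases. Total signals were 6478 in control and 4986 in ICM at EIF2S3, 5340 and 3423 at APOO, and 6642 and 5580 at ACOT9, which are middle ranks of both lists (percentiles 38.0 to 74.2). UBA6, a ubiquitin-activating enzyme gene on chromosome 4, was 2986142 bp from a senescent peak and ZBTB41 with CRB1 on chromosome 1 was 2977449 bp from one.

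The 1235 loci held 5′ ends of 1415 protein-coding genes, out of 5198 genes with a promoter locus of control and ICM, which is 27.2%. A further look at gene groups used this share as the background, and the lists were written with earlier results known. None of the 24 groups with 5 or more such genes had an interval that left out 27.2%, so each count below is near the background and describes which genes are involved. Of the 1415 genes, 70 also had another SMC1 locus with a senescent peak within the same window.

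Genes of cell division are taken first. Of 46 cell cycle and DNA replication genes with a promoter locus of control and ICM, 16 (34.8%, 21.4 to 50.2) were at peak-missing promoters. ORC2, a subunit of the origin recognition complex, had total signals of 8567 in control and 7716 in ICM. FZR1, an activator of the anaphase-promoting complex, had 9206 and 4524, and NCAPG, a condensin subunit, had 7151 and 4064. E2F6, a repressor of the E2F family, had 5465 and 5002. The other 12 included cyclin genes CCND1 and CCNA2, the helicase subunit gene MCM7, the kinase gene CHEK1 and the phosphatase gene CDC25A. Of 16 genes of p53 and RB arrest, 2 were at peak-missing promoters. These were LIN54, a subunit of the DREAM complex that represses cell cycle genes, with 8176 and 4180, and CDKN1B, which codes for the inhibitor p27, with 5149 and 3163.

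DNA repair gave 13 of 38 (34.2%, 19.6 to 51.4). The locus of TDG, a thymine glycosylase, reached percentiles of 87.8 in control and 66.3 in ICM, and is shared with the divergent gene UQCC6. FANCE of the Fanconi pathway reached 79.6 and 74.3, XRCC4 of end joining 54.7 and 75.5, and the exonuclease gene EXO1 65.5 and 53.9. The helicase genes BLM and WRN were also in this group. Replication-dependent histones gave 7 of 17, namely H2BC3, H2BC12, H2AC12, H2BC21, H2AC20, H2AC21 and H1-2, but they stand at few loci. H2BC12 and H2AC12 share 1 locus, and H2BC21, H2AC20 and H2AC21 share a pair of neighbouring loci on chromosome 1, so the genes are not separate cases. Sequence copies among histone genes can also split or remove reads in mapping, which was not examined in these lists.

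For genes that build the machinery studied here, counts were small. Of 12 genes of CTCF and cohesin, 2 had peak-missing promoters. These were PDS5A, a cohesin regulator, with total signals of 4906 in control and 3009 in ICM, and PTTG1, the separase inhibitor securin, with 3552 and 2751, which is close to the lowest values of the lists (3456 and 2455). HMG20B was the only one of 10 HMG genes, with control and ICM percentiles of 0.816 and 13.6, so HMGB1 and HMGB2, the targets of ICM, were not among them. Lamina and heterochromatin gave 4 of 18. RBBP4, a histone chaperone, had 11007 and 4822, BANF1, which binds DNA at the nuclear lamina, had 7001 and 5158, ASF1A, a chaperone of histones H3 and H4, had 6863 and 4280, and the DNA methyltransferase gene DNMT1 had 5345 and 3641. Nuclear pore genes gave 4 of 9, with NUP107, NUP42, NUP58 and NUP54, none of which was over a CTCF peak.

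Among genes known for secretion in senescence, 3 of 19 (15.8%, 3.38 to 39.6) were at peak-missing promoters, and all 3 ranked below the median of both lists. TIMP1, an inhibitor of matrix proteases, had percentiles of 40.7 in control and 16.6 in ICM. The growth factor gene HGF had 25.2 and 32.1, and the chemokine gene CXCL2 had 30.1 and 12.9. Matrix genes gave 11 of 34 (32.4%, 17.4 to 50.5), with percentiles spread from 26.4 to 88.6 in control (median 67.0) and from 10.1 to 90.4 in ICM (median 38.9). The 4 highest-ranked are given first. CCN1, a matricellular protein gene and target of YAP, had 77.4 and 90.4, PLOD2, a collagen lysyl hydroxylase gene, 87.7 and 77.9, and the protease gene ADAMTS1 88.6 and 52.0. FN1, which codes for fibronectin, had 83.2 and 38.9 and was over no CTCF peak. Collagen genes among the 11 were COL7A1, COL5A2 and COL8A1. In ICM several were as low as the secretory genes, with the laminin gene LAMC1 at 17.0 and COL5A2 at 20.98.

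The actin cytoskeleton gave 11 of 38 (28.9%). MYL12A, a myosin light chain gene, had total signals of 9995 in control and 7978 in ICM, with a senescent peak 395 bp away. The locus of TEAD1, the DNA-binding partner of YAP, had 9741 and 6596, and YAP1 itself was in this group. ACTN4 (8486 and 5497) and TPM2 (10770 and 3869) code for an actin crosslinker and a tropomyosin. Growth factor receptors gave 6 of 15, with ROR1, OSMR, AXL, ACVR1, PDGFRB and ERBB2. The AP-1 and immediate early group gave 5 of 29 (17.2%, 5.85 to 35.8), namely JUND, IER3, NR4A1, KLF2 and ZFP36. IER3, an early response gene of cell survival, was 299 bp from a senescent SMC1 peak and the nuclear receptor gene NR4A1 was 1164 bp from one.

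Housekeeping groups followed. Respiratory chain and assembly genes gave 16 of 41 (39.0%, 24.2 to 55.5), with UQCC6, COX15, ATP5PF and NDUFB4 as the highest-ranked. COX15, which makes heme A for cytochrome oxidase, had total signals of 7656 and 6509. ATP5PF, a subunit of ATP synthase, had 11075 and 4602 at a locus shared with GABPA, which codes for an ETS factor of respiratory genes. Splicing gave 18 of 51 (35.3%, 22.4 to 49.9), with HNRNPA0 (12910 and 6527), SNRNP70 (7898 and 6256), HNRNPK (11796 and 3909) and SRSF4 (6225 and 5541). Translation factors gave 13 of 36 (36.1%), led by EIF1, which selects start codons, with 10645 and 6185.

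Ribosomal proteins of the cytosol gave 10 of 36 (27.8%), with RPL27A, RPL18, RPS3A and RPL30 as the highest-ranked, and those of mitochondria 9 of 30 (30.0%), led by MRPS16. The proteasome gave 5 of 22, led by PSMD12, and RNA polymerase and Mediator subunits 6 of 27, led by POLR2B. Autophagy and lysosome genes gave 6 of 26, led by GABARAPL1, which had percentiles of 76.6 and 89.7. Zinc finger genes gave 34 of 128 (26.6%, 19.1 to 35.1), led by ZNF362, and genes with TMEM symbols 19 of 67. Solute carriers gave 14 of 79 (17.7%, 10.04 to 27.9), led by the amino acid transporter gene SLC7A6. In the HOX family HOXA5 was the sole gene with a promoter locus of control and ICM, and in the olfactory receptor family OR51D1 was.

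**Figure D4:**
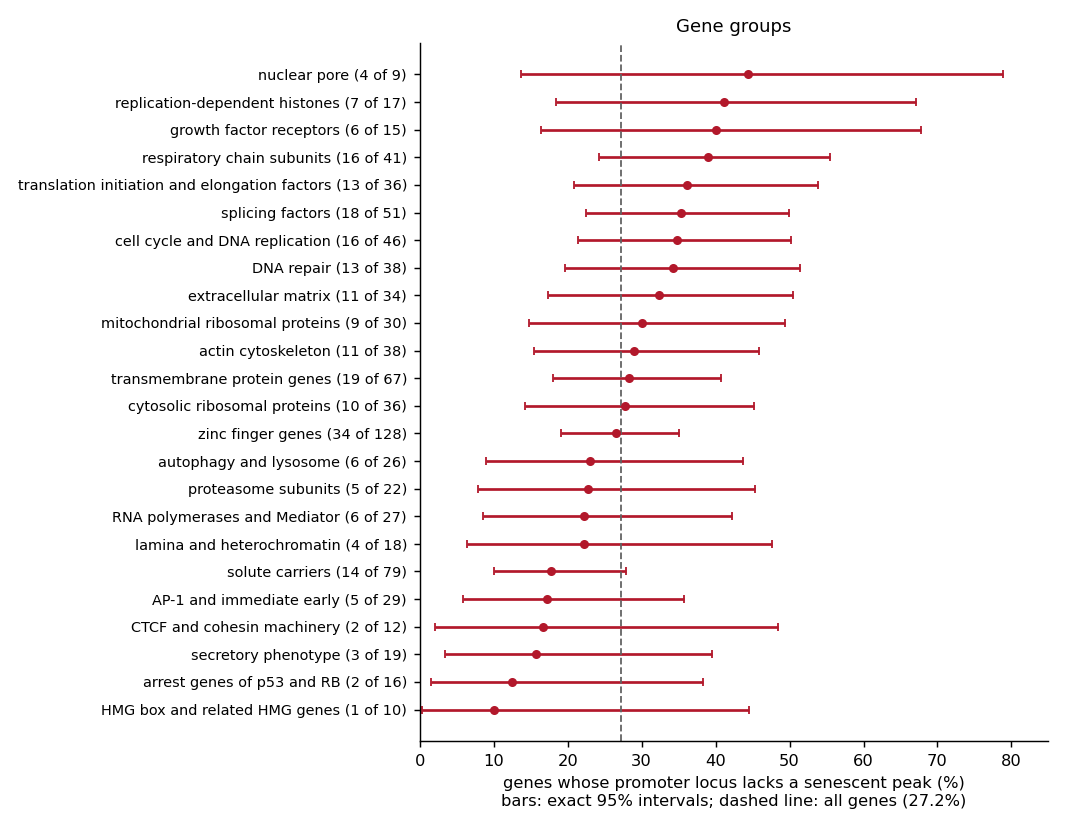
Share of genes whose promoter locus of control and ICM lacks a senescent SMC1 peak (x axis, percent) for 24 gene groups, with the number of such genes of the number with a promoter locus of control and ICM, and exact 95% intervals as bars. The dashed line is the share over all such protein-coding genes (27.2%). The bars of all 24 groups cross the line.

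The sequence around the starts was compared next, since the selection did not use it. RefSeq entries were found for 1148 of the 1415 genes. The ETS letters CCGGAAG, searched on both strands, were in 25.3% (22.9 to 28.0) of their promoters, in 19.0% (17.6 to 20.4) of those in all 3 SMC1 lists and in 14.7% (14.1 to 15.3) of all 14540 protein-coding promoters with an entry. Promoters of the control list alone gave 22.7% (19.8 to 25.8), of the ICM list alone 30.1% (25.3 to 35.1), of the senescent list alone 14.1% (10.4 to 18.6), and promoters without an SMC1 locus 10.1%. Promoters shared by control and senescent cells without ICM gave 17.4% (13.5 to 21.99), and those shared by ICM and senescent cells without control 21.1% (14.9 to 28.4). Apart from the peak-missing promoters, the interval lay wholly above that of promoters in all 3 lists for the ICM list alone, and the interval of the control list alone overlapped it. Matches at 2 or more places were in 5.57% (4.32 to 7.06) of peak-missing promoters and in 3.52% (2.90 to 4.23) of promoters in all 3 lists.

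The share with ETS letters also varied with rank. In rank bands of the control list from low to high, ETS letters were in 24.1% (18.8 to 30.0), 28.2% (23.4 to 33.4), 27.7% (23.4 to 32.3) and 17.4% (11.7 to 24.5) of peak-missing promoters. In promoters of all 3 lists they were in 22.6% (15.8 to 30.6), 21.9% (17.9 to 26.4), 21.2% (18.5 to 24.0) and 16.8% (15.0 to 18.6). Peak-missing promoters had the higher share in each band. The intervals overlapped in all 4, but overlap of separate intervals does not show that the shares are equal. The difference within a band was not tested. At loci over no CTCF peak, the letters were in 26.0% (23.1 to 29.1) of peak-missing promoters and in 21.7% (19.6 to 23.8) of promoters in all 3 lists, and at loci with CTCF in all 3 CTCF lists in 16.7% and 16.6%. Of the 18 genes with an entry whose peak-missing promoter had CTCF in the senescent list alone, 7 held them (38.9%, 17.3 to 64.3). In promoters of all 3 SMC1 lists with CTCF in the senescent list alone, 4 of 52 genes did (7.69%, 2.14 to 18.5). EOLA2, TP53RK, POLM and ZCCHC9 are among the 7, and were shown above because they hold the letters.

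Other letters differed in both directions. CRE letters (TGACGTCA) were in 4.70% (3.55 to 6.09) of peak-missing promoters and 3.33% (2.73 to 4.02) of promoters in all 3 lists, and their first part TGACGT, which every CRE match holds, in 15.5% (13.5 to 17.7) and 12.6% (11.4 to 13.8). NRF1 letters (GCATGCGC) were in 7.40% and 6.56%, and SP letters (GGGCGG) in 72.7% and 74.8%. The letters CCAAT of NFY were less frequent at peak-missing promoters, with 38.3% (35.5 to 41.2) against 44.6% (42.8 to 46.3). The high value was that of promoters in all 3 lists, since the other SMC1 classes had 33.6% to 38.4% and all protein-coding promoters 36.7%. In control rank bands from low to high, CCAAT was in 34.6%, 37.3%, 37.5% and 46.3% of peak-missing promoters. Promoters in all 3 lists had 29.3%, 41.6%, 44.9% and 46.3%. YY1 letters (AAGATGGC) were in 4.18% (3.10 to 5.51) of peak-missing promoters, against 6.46% (5.63 to 7.38) of promoters in all 3 lists. Peak-missing promoters were near the 4.06% of all protein-coding promoters, and the other SMC1 classes had 3.03% to 10.5%. AP-1 letters (TGANTCA) were in 4.01% and 3.90%, against 5.67% of all protein-coding promoters. The CTCF motif was found in 0.61% and 0.80% of these short windows. In these 300 bases GC content was 66.0% in the median of peak-missing promoters and 65.7% in promoters of all 3 lists, and the ratio of observed to expected CpG was 0.89 and 0.84. A match of letters is not a measured binding site.

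Peak-missing promoters also lay in regions with fewer genes than promoters in all 3 lists, as did promoters of the control list alone. Within 250 kb on either side of the locus there were 6 protein-coding 5′ ends in the median (quartiles 4 and 11), against 7 (4 and 14) for promoters in all 3 lists. Promoters of the control list alone had 6 (3 and 10), of the ICM list alone 7 (4 and 12) and of the senescent list alone 9 (5 and 16). The share without a senescent peak was 32.2% (30.0 to 34.4) at promoters with up to 5 such 5′ ends, 28.3% with 6 to 10, 23.3% with 11 to 20 and 19.2% (15.6 to 23.1) with more than 20. The median control percentile of the promoters was between 66.4 and 71.8 in these classes and had no steady course along them. Distal loci had the same order, from 35.8% (34.4 to 37.2) with up to 5 to 23.9% with more than 20.

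Chromosomes followed in the same way. The share was highest on chromosome X (24 of 55, 43.6%, 30.3 to 57.7), on 21 (17 of 40, 42.5%), on 4 (64 of 163, 39.3%, 31.7 to 47.2) and on 18 (25 of 66, 37.9%). It was lowest on chromosome 16 (36 of 195, 18.5%, 13.3 to 24.6), on 22 (19 of 97, 19.6%) and on 17 (58 of 274, 21.2%, 16.5 to 26.5). Across the 23 chromosomes it had a Spearman rho of -0.56 with the number of protein-coding genes per Mb and of 0.65 with the share at distal loci, given as descriptions over chromosomes of the same libraries. Genes of peak-missing promoters were also longer, with a median span of 35.1 kb against 27.4 kb for promoters in all 3 lists and 24.8 kb for all protein-coding genes. Genes of the control list alone had 37.9 kb and those of the senescent list alone 28.5 kb. Neighbouring promoters tended to go together to a small degree, since the next promoter locus of control and ICM was itself without a senescent peak in 31.3% of cases beside a peak-missing promoter and in 26.5% beside a promoter in all 3 lists.

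**Figure D5:**
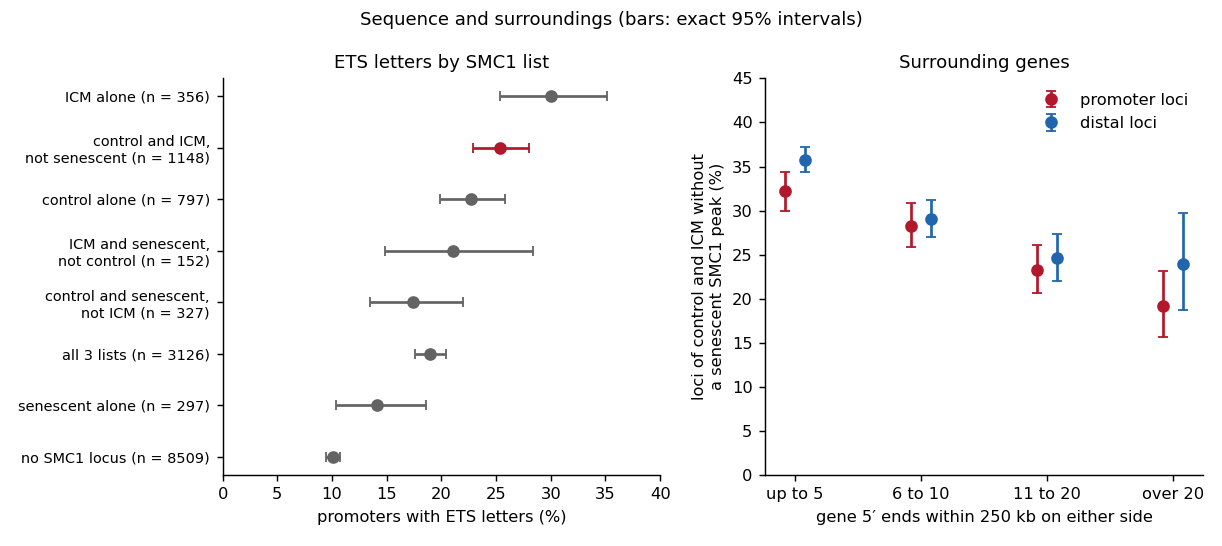
Left, share of promoters with ETS letters (x axis, percent) by the SMC1 lists that hold a peak, with peak-missing promoters in red and n genes with a RefSeq entry. Right, share of loci of control and ICM without a senescent SMC1 peak (y axis, percent) by the number of protein-coding 5′ ends within 250 kb on either side, with promoter loci in red and distal loci in blue. Bars are exact 95% intervals. ETS letters range from 10.1% without SMC1 to 30.1% in the ICM list alone, and the share without a senescent peak falls from 32.2% to 19.2% at promoters.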

How the data were processed

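SMC1 and CTCF CUT&Tag had been carried out by the authors on IMR90 cells in 3 conditions, with 1 library per group. Reads had been aligned with Bowtie2 2.3.4.1 to hg38 and to E. coli, for a spike-in, and deduplicated with Picard 2.20.7, per the labels and the study's methods. Peaks had been called per library with SEACR 1.3 in stringent mode on the top 1% of regions. The deposited lists give total and highest signal, that is coverage, for each peak. All deposited signal values were whole numbers, so no fractional spike-in factor could be seen in them, and a scaling between lists is not assumed. A minimum number of reads is stated in the study's methods, but no depth per list is given. Depth limits which loci reach a list, and precision could be stated for counting alone.

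Peaks were merged into loci and classed with Python 3.11.15, numpy 2.4.6, pandas 2.3.3 and SciPy 1.17.1, which was tested on simulated lists. Percentiles are ranks within a peak's own list. A locus with several peaks of a list was given the highest. Gene positions and promoter sequences came from RefSeq tables of GRCh38.p14. Strand was taken from the promoter table for 15811 genes and from GENCODE v44 for 3815 more. Where both gave one, 63 of 15259 genes differed, and the promoter table was used. In all 19626 of 19970 protein-coding genes had a strand, and the 5′ end was the outermost of the gene. Motif letters were searched in windows of 300 bases, in 14540 of the genes whose entry started within the promoter window.

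Groups came from the sample titles. The rule, the 26 gene lists and the 20 motifs were chosen with earlier results of these data known. Named are the 10 loci of highest mean percentile in control and ICM, up to 4 genes per list, 5 loci per CTCF class, those nearest to the border of the rule, the widest and the most isolated. Further list members given without values were picked after their values were seen. No test was made, because there were no replicates. The alternatives covered the merging, list length, promoter window and ranking. Mitochondrial, Y and unplaced peaks were left out.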

Additional observations from a re-analysis of the deposited data

How the results depend on the processing

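With 1 library per group, neither a test nor leaving out a replicate was possible. No paired analysis was possible because each group has 1 library. The number of peak-missing promoters (1235) was between 1167 and 1511 under the alternative promoter windows, gene sets and merging rules. It was 794 in lists of equal length by total signal, 691 in lists of equal length by highest signal, 341 when control and ICM peaks were limited to those above the median of their lists and 862 when senescent peaks were limited in this way too. All 794, 691 and 341 were among the 1235. Of the 1511 with 100 bp summit windows, 944 (62.5%) overlapped one of the 1235, and of the 862 only 341 (39.6%) did, so a like number does not mean the same loci. The share of promoter loci without a senescent peak (27.8%) became 43.5% with 100 bp summit windows, 21.6% and 21.4% in lists of equal length by total and by highest signal, 32.9% with the peaks above the median of each list and 13.0% when this limit was set for control and ICM alone. With summit windows the shares over a control and a senescent CTCF peak were 23.2% and 22.8%, the median percentiles 58.0 in control and 53.8 in ICM, and the median gap 10594 bp. With lists of equal length by total signal the share over a senescent CTCF peak was 17.1% and the median percentiles 56.3 and 54.4. Ranking by highest signal gave 44.6 and 35.0.

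Alternatives chosen after seeing the data concerned the ETS letters. They were in 22.6% of peak-missing promoters and 19.2% of promoters in all 3 lists with summit windows, in 27.2% and 19.0% with lists of equal length by total signal, in 27.3% and 18.8% by highest signal, and in 26.1% and 19.4% with summits inside the promoter window. The causes of these shifts were not tested. The unknown depth of each list limits all statements on a missing peak.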
